A study of Arabidopsis thaliana with 4 samples.

Results

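Of the 16319 probe sets analysed in leaves of Arabidopsis thaliana, 6 belong to the genes described here: GRX480 (AT1G28480), MSRB9 (AT4G21850), STZ (AT1G27730), GR1 (AT3G24170), TAPX (AT1G77490) and SAPX (AT4G08390). They were taken by symbol from the probe sets that the array annotation pairs with exactly 1 gene, of which each gene had 1, among 9571 genes with a probe set of their own. They were chosen with their change after probenazole (PBZ) already known, so their values in that comparison are a description and carry no test. The plants were 5 weeks old and grown in days of 8 h light and 16 h dark. Rosette leaves 5 to 8 were taken before any treatment (time 0 h, 2 biological replicates) and 72 h after the roots were drenched with 0.5 mM PBZ (2 biological replicates), a plant defence activator used by the submitters to raise the plants' own salicylic acid. No genotype or ecotype is given in the labels, and no untreated leaves of 72 h were among the 4 samples, so PBZ and the passing of 72 h cannot be told apart. Each RNA sample was hybridised to its own Affymetrix array, whose linear signal is given here as deposited.

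Cells keep their redox state through enzymes that remove hydrogen peroxide, enzymes that repair oxidised proteins and regulators that pass a redox change on to transcription. In chloroplasts, ascorbate peroxidases spend ascorbate to reduce the hydrogen peroxide made in the light, and glutathione reductases keep up the glutathione that helps to regenerate ascorbate. Salicylic acid is known to shift the glutathione pool and to act through NPR1 and TGA transcription factors, with which glutaredoxins can interact.

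The median signal per array was 19.2 and 27.6 before PBZ and 32.5 and 27.1 after it, so the arrays differed in overall brightness. The replicate with the lowest median, before replicate 1, also had the lowest ratio of 3' to 5' signal of the actin and GAPDH controls. For actin it was 2.54, against 10.6 to 12.9 on the other 3 arrays, and for GAPDH 0.97 against 1.42 to 1.68. A higher ratio means less signal from the 5' end relative to the 3' end. No array is judged unsound from these values. Leaving out before replicate 1 keeps the 3 arrays with the higher ratios, so it is not the removal of a poorer array. The part of the medians and ratios in the results below was not tested. Differences without before replicate 1 and without before replicate 2 are given for each of the 6 genes. The median log2 difference of the 12225 tested probe sets, after minus before PBZ, was 0.38 as deposited, 0.01 with each array centred on its median and -0.06 after quantile normalization. As deposited it was 0.06 without before replicate 1, but 0.64 when before replicate 2 was left out. None of the 10 mesophyll markers on the list had a probe set named for it alone, but 6 photosynthesis genes chosen after their values were seen had signals from 392 (LHCB4.3) to 5331 (SBPASE) on the 4 arrays. PRK, SBPASE and LHCB4.3 read lower on both arrays after PBZ, with log2 differences of -0.97, -0.65 and -0.96. LHCB4.2, PSBW and ATPC1 overlapped between the groups, at -0.09, 0.45 and 0.04. Of the guard cell markers 2 of 6 had one, with a summed signal of 195.9 to 356 before PBZ and 266 to 402 after it. Of the vasculature markers 1 of 6 had one, SWEET11, with a signal of 1473 to 2009 before PBZ and 1118 to 1343 after it. No marker with a named probe set was at 0, and none of these 3 guard cell and vasculature markers passed the test. The part of the SWEET11 and photosynthesis gene differences in the results below was not tested.

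The repair and signalling genes were the ones that stood far higher after PBZ, while the chloroplast scavengers lay lower or in the same range. GRX480, MSRB9 and STZ had signals after PBZ at least 2.97 times the highest signal before it. GR1, the glutathione reductase of the cytosol and peroxisomes, was higher by a smaller step. The thylakoid peroxidase TAPX was lower on both arrays after PBZ, and the stromal peroxidase SAPX overlapped between the groups. All 6 passed the filter on dim probe sets, a mean signal above 6.80 over the 4 arrays. In the leaves before PBZ the mean of MSRB9 (6.90) and that of GRX480 (7.20) lay just above that value, with 1 array above and 1 below it for each.

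**Figure D1:**
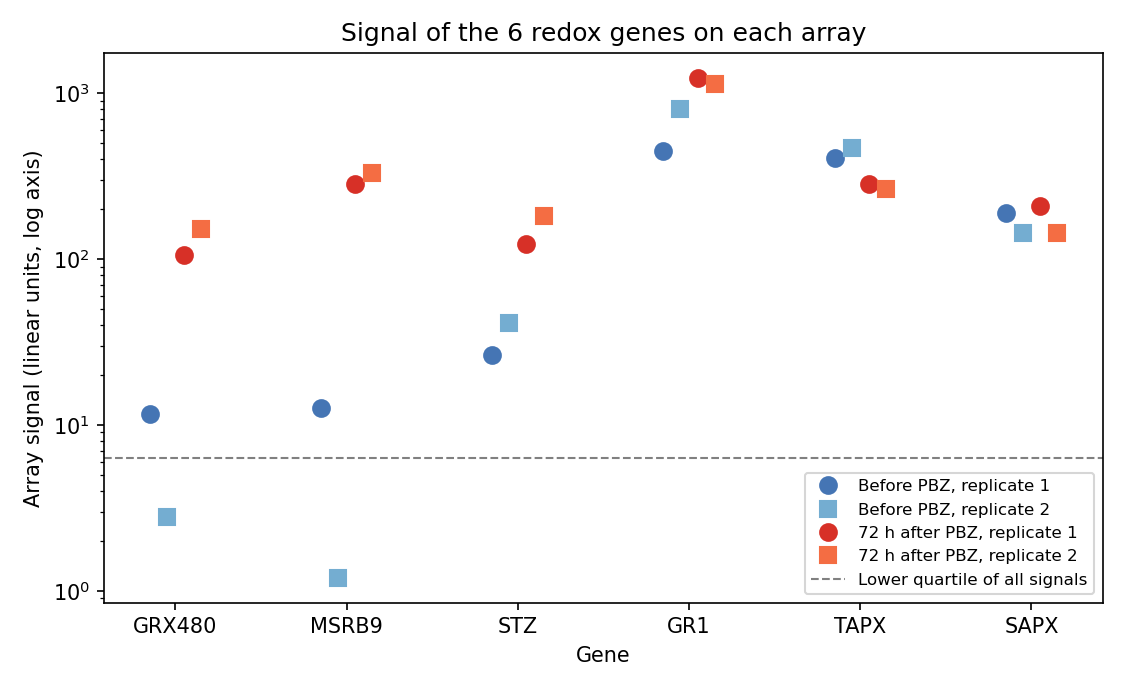
Linear array signal (log axis) of each of the 6 genes on the 4 arrays, blue before PBZ and red 72 h after it, with circles for replicate 1 and squares for replicate 2. GRX480, MSRB9, STZ and GR1 lie higher on both arrays after PBZ, TAPX lower, and SAPX overlaps. The dashed line is the lower quartile of all signals, 6.30, and 1 array before PBZ lies below it for GRX480 and for MSRB9.

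MSRB9 encodes a methionine sulfoxide reductase of the B type, an enzyme that repairs oxidised methionine in proteins. Its signal was 12.6 and 1.20 on the 2 arrays before PBZ and 281.8 and 327.9 on the 2 arrays after it. The groups did not overlap, and the lowest signal after PBZ was 22.4 times the highest before it. The means were 6.90 ± 8.06 before and 305 ± 32.6 after (SD, n = 2 arrays each), and the log2 difference was 6.29 ± 0.70 (SE of the limma fit). The array at 1.20 lies below the lower quartile of all signals, 6.30, and a ratio to so dim a signal is unreliable. With such signals set to 6.30, MSRB9 was at least 34.1-fold higher after PBZ by the group means of log2 signal. Leaving out before replicate 2, the array at 1.20, gave a log2 difference of 4.59, and leaving out before replicate 1 gave 7.98. The reference places MSRB9 between MSRB8 and MSRB2, in a run of MSRB genes that starts with MSRB7. None of these 3 neighbours had a probe set named for it, and how far their transcripts bind to the MSRB9 probes was not tested.

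GRX480 (also ROXY19) encodes a glutaredoxin known to bind TGA factors and to be induced by salicylic acid. Its signal was 11.6 and 2.80 before PBZ and 105.1 and 152.1 after it. Both arrays after PBZ stood above both before it, the nearest by 9.06 times. The means were 7.20 ± 6.22 and 129 ± 33.2 (SD, n = 2 each), with a log2 difference of 4.47 ± 0.65 (SE). Because 1 array before PBZ was under 6.30, the gene was at least 14.8-fold higher after PBZ by the group means of log2 signal. Leaving out before replicate 2 gave a log2 difference of 3.45, and leaving out before replicate 1 gave 5.50. Before replicate 1 was thus the higher of the 2 arrays before PBZ for both GRX480 and MSRB9, although it was the dimmest array by its median.

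STZ (also ZAT10) encodes a zinc finger protein that represses transcription and is known from responses to salt, cold and strong light. Its signal was 26.5 and 41.3 before PBZ and 122.5 and 181.4 after it, so it was above 6.30 on all 4 arrays. The groups did not overlap, with the lowest signal after PBZ 2.97 times the highest before. The means were 33.9 ± 10.5 and 152 ± 41.6 (SD, n = 2 each), a log2 difference of 2.17 ± 0.57 (SE), or 4.51-fold. The difference ranged from 1.85 without before replicate 1 to 2.49 without before replicate 2.

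GR1 encodes glutathione reductase, which turns oxidised glutathione back to its reduced form. Its signal was 446.6 and 802.7 before PBZ and 1234 and 1133.6 after it. Both arrays after PBZ were higher, the nearest pair of arrays by 1.41 times. The means were 625 ± 252 and 1184 ± 71.0 (SD, n = 2 each), a log2 difference of 0.98 ± 0.47 (SE). The value depended on the scaling of the arrays: it was 0.62 with arrays centred on their medians and 0.54 after quantile normalization. Without before replicate 1 the deposited difference was 0.56, and without before replicate 2 it was 1.41.

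TAPX encodes the ascorbate peroxidase bound to thylakoid membranes. Its signal was 404.5 and 466 before PBZ and 285.1 and 263.2 after it. It was the only one of the 6 genes with both arrays after PBZ below both before. The means were 435 ± 43.5 and 274 ± 15.5 (SD, n = 2 each), a log2 difference of -0.66 ± 0.52 (SE), so that the level before PBZ was 1.58 times that after it. The difference was -1.03 with centred arrays and -1.21 after quantile normalization, and it ranged from -0.77 to -0.56 as each array was left out in turn.

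SAPX encodes the soluble ascorbate peroxidase of the stroma, which is also targeted to mitochondria. Its signal was 188.8 and 143.4 before PBZ and 208.4 and 142.8 after it. Replicate 2 of both groups read nearly the same, and the groups overlapped. The log2 difference was 0.07 ± 0.56 (SE), a value that turned to -0.30 with centred arrays and to -0.48 after quantile normalization. It was 0.27 without before replicate 1, but -0.13 when before replicate 2 was left out. No direction can be given for SAPX at this spread and scaling. In bulk leaves, fewer cells of a type and less RNA per cell cannot be told apart for any of these genes.

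**Figure D2:**
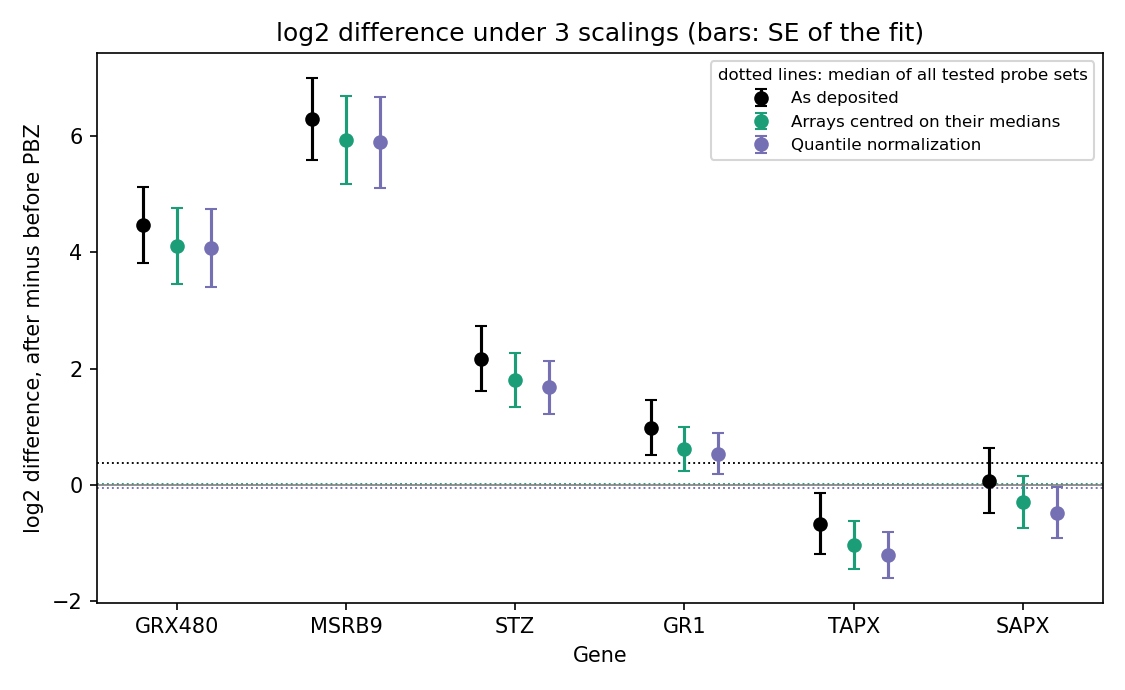
The log2 difference (after minus before PBZ) of each gene, with the SE of the limma fit, under the deposited scaling (black), with each array centred on its median (green) and after quantile normalization (purple). GRX480, MSRB9, STZ and GR1 keep a positive and TAPX a negative difference under all 3, while SAPX changes sign; dotted lines give the median of all tested probe sets.

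Dividing each signal by the median of its array takes out overall brightness. GR1 then read 23.3 and 29.1 times the array median before PBZ and 38.0 and 41.8 times after it. TAPX read 21.1 and 16.9 times before and 8.77 and 9.71 times after. STZ went from 1.38 and 1.50 times to 3.77 and 6.69 times, and SAPX from 9.83 and 5.20 to 6.41 and 5.27 times. The groups of GR1, STZ and TAPX therefore stayed apart and those of SAPX still overlapped on this scale. Of the 6 genes, 4 lay higher and 1 lower on both arrays after PBZ, whereas 36.3% of all tested probe sets lay higher and 10.5% lower on both. On the scale divided by the median these shares were 25.7% and 22.7%.

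In the limma fit over 12225 probe sets, 675 were higher (5.52%) and 33 lower (0.27%) after PBZ at an adjusted p under 0.05 with Benjamini-Hochberg adjustment. Quantile normalization gave 542 higher and 276 lower, and centred arrays 603 and 182. GRX480, MSRB9 and STZ were among the 675, and GR1, TAPX and SAPX were in neither count. Nothing is read from this, since the same contrast chose the genes. STZ was not among the calls without before replicate 1, without after replicate 1 or without after replicate 2, which left 2 of the 6 genes called, and none of the 6 was called when the error model had no intensity trend.

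Within 1 array a difference between a pair of genes is free of any factor that scales the whole array. The level of a probe set cannot be set against that of another, so only the change between the groups is described. The mean log2 signal of GRX480, MSRB9 and STZ minus that of TAPX and SAPX was -4.14 and -5.64 before PBZ and -0.67 and 0.10 after it. The groups did not overlap, and the change was 4.61, with a pooled SD between replicates of 0.85. As deposited, the mean of the repair and signalling genes changed by 4.31 and that of the scavengers by -0.30. Unlike their difference, this split depended on the scaling, with 3.94 and -0.66 for centred arrays and 3.88 and -0.84 after quantile normalization. With signals under 6.30 set to 6.30 the change was 4.02, and leaving out each array in turn gave 3.86 to 5.36.

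The difference between the chloroplast peroxidases was lower on both arrays after PBZ, by a margin smaller than the gap between the replicates of either group. TAPX minus SAPX was 1.10 and 1.70 before PBZ and 0.45 and 0.88 after it, a change of -0.73 in log2 with groups that did not overlap (-1.03 without before replicate 1, -0.43 without before replicate 2). GR1 moved against TAPX: GR1 minus TAPX was 0.14 and 0.78 before PBZ and 2.11 and 2.11 after it, a change of 1.65 (1.33 without before replicate 1). GR1 was also set against the other glutathione reductase, GR (AT3G54660), which serves chloroplasts and mitochondria. Both pairs contain GR1, a gene chosen with its change known, so the second pair does not stand apart from the first. GR1 itself differed by 0.98 in log2 and GR by -0.42. The groups of GR overlapped, and GR did not pass the test (limma adjusted p = 0.721). GR had signals of 744.9 and 1121.7 before PBZ and 748.8 and 626.1 after it, and GR1 minus GR changed by 1.40, from -0.74 and -0.48 to 0.72 and 0.86 (a change of 1.27 without before replicate 1). All 15 pairs of the 6 genes had groups that did not overlap, a count that partly follows from how the genes were chosen and from the 4 arrays they share. The share over pairs of other probe sets was not taken, so nothing is read from the count. GR1 minus SAPX came close to overlap, at 1.24 and 2.48 before PBZ and 2.57 and 2.99 after it.

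**Figure D3:**
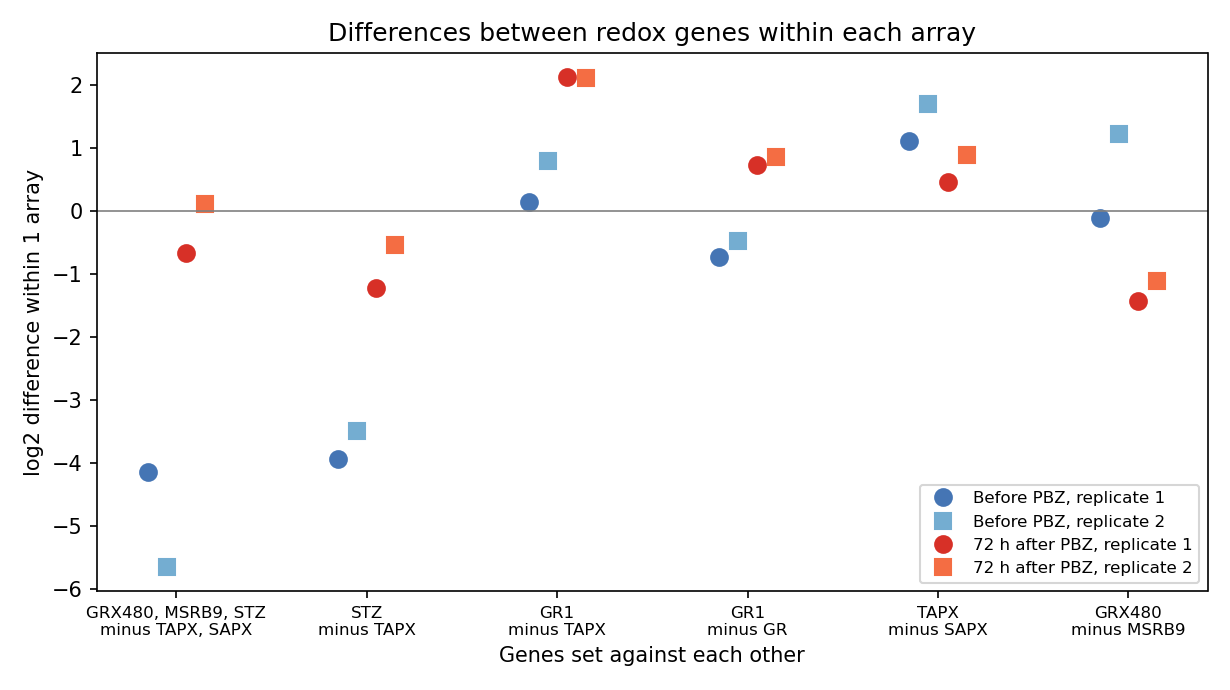
Differences in log2 signal between genes within each array, blue before PBZ and red after it, circles for replicate 1 and squares for replicate 2. The first column sets the mean of GRX480, MSRB9 and STZ against that of TAPX and SAPX (-4.14 and -5.64 before, -0.67 and 0.10 after); the other columns are single pairs, in each of which the groups do not overlap. Only the shift between blue and red can be read, not the height.

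The replicates of the dim genes before PBZ differed most. The log2 gap between the 2 arrays before PBZ was 3.39 for MSRB9 and 2.05 for GRX480, against a median of 0.71 over all tested probe sets. For GR1, STZ, SAPX and TAPX it was 0.85, 0.64, 0.40 and 0.20. After PBZ the gaps of the 6 genes ran from 0.12 for TAPX and GR1 to 0.57 for STZ, with a median of 0.53 over all tested probe sets. The size of the MSRB9 and GRX480 changes is therefore limited by the leaves before PBZ, and their level after PBZ is the better measured one.

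Other genes of the same families were taken from lists of loci by family. Of 146 listed genes 31 had a probe set named for them alone and 28 passed the dim filter. Of the 28, 1 was called higher and 0 lower (limma, adjusted p under 0.05 over all probe sets), beside 5.52% and 0.27% of all tested probe sets. At an unadjusted p under 0.05, 2 were higher and 0 lower, beside 15.1% and 1.88%. The single call is near its share. Their median log2 difference was 0.18, beside 0.38 over all tested probe sets. It was -0.06 without before replicate 1, 0.36 without before replicate 2 and -0.31 after quantile normalization, beside 0.06, 0.64 and -0.06. On both arrays after PBZ, 9 of the 28 were above both before and 6 were below, beside 36.3% and 10.5% of all tested probe sets. Divided by the array medians, 3 were above and 8 below, beside 25.7% and 22.7%. The balance of the 28 thus turned with the scaling, while that of all tested probe sets narrowed.

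The called gene was AT4G26120, entered on the list of TGA factors and NPR proteins, for which the reference gives no symbol. Its signal was 0.9 and 20 before PBZ and 100.9 and 52.6 after it. It rose by a log2 difference of 4.10 ± 0.89 (SE, limma adjusted p = 0.00249). With the 1 array under 6.30 before PBZ set to 6.30, the group means of log2 signal differed by at least 6.49-fold. This allows for the dim array only and not for the spread of the others. The nearest arrays of the groups differed by 2.63 times. The difference was 1.87 without before replicate 1, but 6.34 when before replicate 2 was left out. It did not pass without before replicate 1 (adjusted p = 0.189), the array at 0.9, or without after replicate 1 (0.139), nor without the dim filter (0.0868) or an intensity trend (0.27). No other gene of the 14 on that list had a probe set named for it, and TGA2 and NPR1 are therefore not described here.

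Among the glutaredoxins, the family of GRX480, 8 of the 10 genes with a named probe set were tested and none was called, 4 with a positive and 4 with a negative difference. AT1G06830 had signals of 177.4 and 175.3 before PBZ and 87.9 and 90 after it, with a log2 difference of -0.99 ± 0.56 (limma adjusted p = 0.387). It passed under quantile normalization, at -1.51 (limma adjusted p = 0.038), and under no other alternative. With centred arrays it was at -1.35 (limma adjusted p = 0.0725). AT1G03020 read 28.9 and 6.6 before and 34.5 and 43.6 after, a log2 difference of 1.49 ± 0.68 (adjusted p = 0.244). These loci carry no symbol in the reference, and their family comes from the list. The other 6 tested genes lay between -0.73 and 1.08, all short of the 4.47 of GRX480, a gap for which no test was made because GRX480 was chosen for its change. ROXY1, a glutaredoxin of petal development, was too dim to be tested, at 0.6 to 9.5 on the 4 arrays.

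The other methionine sulfoxide reductases did not pass either. MSRB3 read 38.2 and 42.2 before PBZ and 68.6 and 84.5 after it, a log2 difference of 0.92 ± 0.56 (limma adjusted p = 0.427). MSRA5 read 32.2 and 39.3 before and 56.1 and 67.2 after, a log2 difference of 0.79 ± 0.56 (adjusted p = 0.519). MSRB3 and MSRA5 were each higher on both arrays after PBZ, as were 36.3% of all tested probe sets. After quantile normalization their log2 differences were 0.46 and 0.34. MSRB5 and MSRB6, named after their values were seen, overlapped between the groups, with log2 differences of -0.21 ± 0.59 and -0.19 ± 0.55. The difference of MSRB9, 6.29, stands beside these as a value only.

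In the ascorbate and glutathione cycle the tested genes were GR, with a log2 difference of -0.42 ± 0.47 (limma adjusted p = 0.721), and GLDH, the last enzyme of ascorbate synthesis, with 0.58 ± 0.58 (adjusted p = 0.672). Of the peroxiredoxins, which reduce peroxides with thiols, AT3G52960 read 432.7 and 328.3 before PBZ and 186.7 and 224 after it. Its log2 difference was -0.88 ± 0.54 (limma adjusted p = 0.435). It passed under quantile normalization, at -1.44 (limma adjusted p = 0.0421), and under no other alternative. With centred arrays it was at -1.25 (limma adjusted p = 0.106). The mitochondrial PRXIIF read 187.7 and 160.1 before and 245.8 and 268.6 after, a log2 difference of 0.57 ± 0.55 (limma adjusted p = 0.661). It was 0.20 with centred arrays and -0.01 after quantile normalization, and its groups overlapped once divided by the array medians. The remaining tested peroxiredoxin entry, AT3G11630, named after its values were seen, read 1480.1 and 2295.4 before and 1856.6 and 1638.1 after. Its groups overlapped, at -0.08 ± 0.40. CCS, the copper chaperone of superoxide dismutase, overlapped between the groups, at 0.15 ± 0.56. AT1G19230, the respiratory burst oxidase entry, varied from 0.5 to 19.7 before PBZ and gave no usable difference (0.44 ± 2.37).

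The 7 thioredoxin entries lay between -0.34 and 0.68. TO1, a mitochondrial thioredoxin, read 52.3 and 38.3 before PBZ and 71.8 and 71.6 after it (log2 difference 0.68 ± 0.56, limma adjusted p = 0.591). It was 0.31 with centred arrays and 0.21 after quantile normalization, and its groups overlapped once divided by the array medians. AT2G04700, entered as a subunit of ferredoxin-thioredoxin reductase, was at 0.64 ± 0.48 (adjusted p = 0.549) with groups that overlapped. AT2G28200, the tested entry among zinc finger factors like STZ, read 61.8 and 99.8 before PBZ and 40.6 and 47.8 after it. Its log2 difference was -0.83 ± 0.56 (adjusted p = 0.491), with the sign opposite to that of STZ. The second measured entry of that list, AT3G53600, read at most 0.8 on any array and was not tested.

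**Figure D4:**
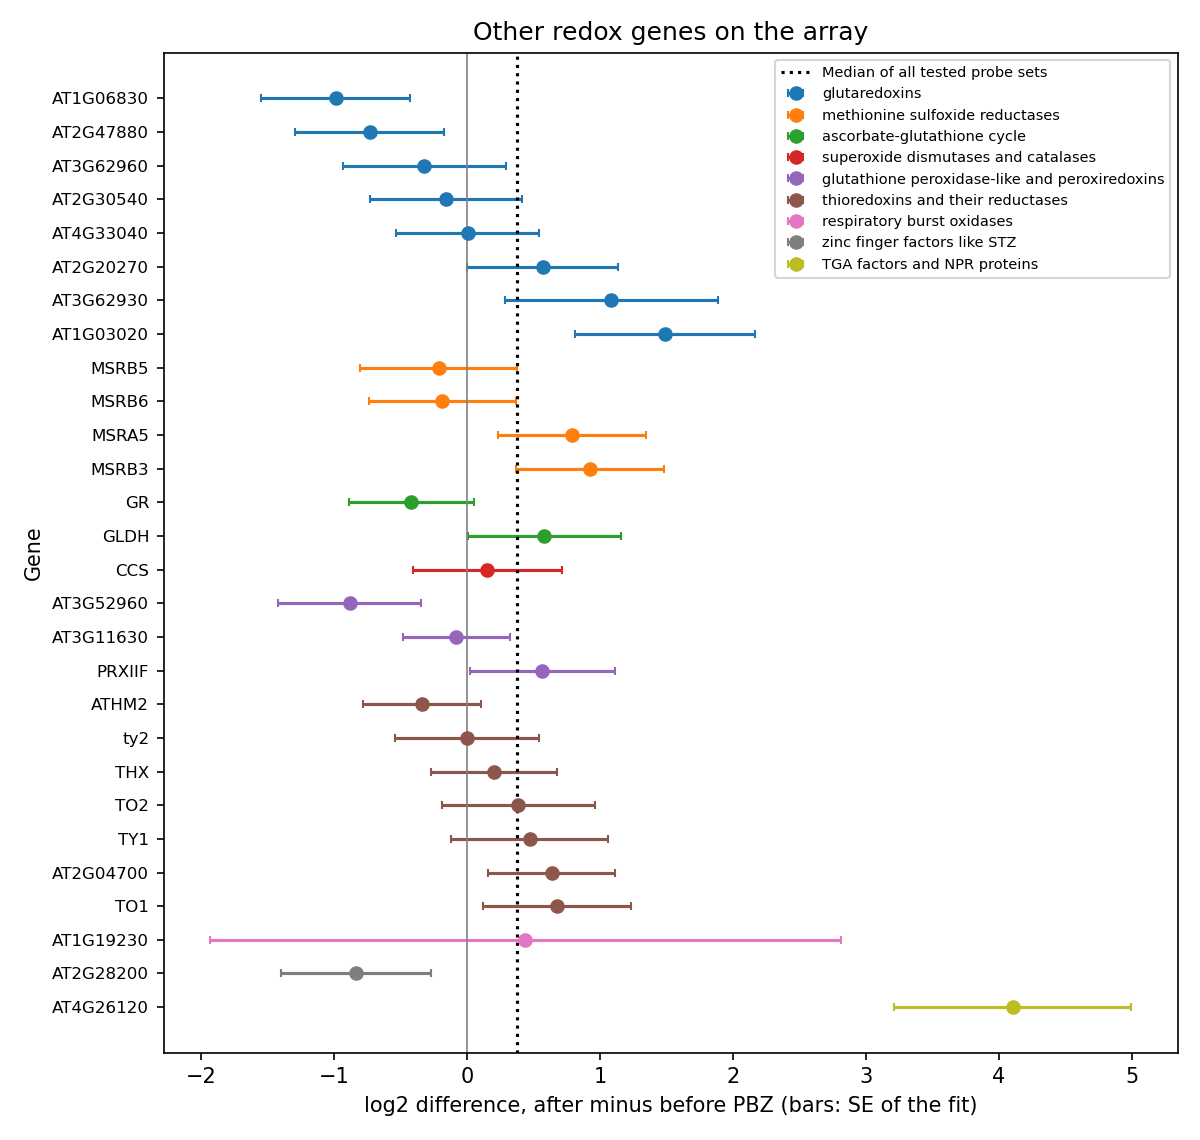
The log2 difference (after minus before PBZ) of the 28 other tested redox genes with the SE of the limma fit, coloured by family list. All but AT4G26120, at 4.10, lie between -0.99 and 1.49, around the dotted line that marks the median of all tested probe sets, 0.38.

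The genes most alike in pattern were found by the root mean square difference of log2 signals over the 4 arrays, each gene centred on its own mean, with signals under 6.30 set to 6.30, among 6790 probe sets of 1 gene. The measure rests on 4 arrays that all genes share. For GRX480 the nearest were ZCF37 at 0.18, with signals of 9.3 and 4.9 before PBZ and 110.2 and 120.1 after it, and AT3G62780 at 0.30. MSRB9 had no gene within 0.25, its nearest being AT1G05340 at 0.39 and AT3G48640 at 0.49. Both of these read under 6.30 on both arrays before PBZ.

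The milder genes had many like them. For STZ, 58 genes lay within 0.25, led by AT3G12040 and AT1G19240, both at 0.05, the latter with signals of 27.1 and 41.5 before and 133.5 and 183.3 after PBZ. For GR1, 714 lay within 0.25, led by AT1G21380 and AT3G07550, both at 0.03. For TAPX, 311 did, led by AT1G56180 at 0.02 and AT1G80570 at 0.03, and for SAPX, 242 did, led by AT4G27640 at 0.04 and AT2G04420 at 0.05. The patterns of GR1, TAPX and SAPX were thus shared by many probe sets, and that of MSRB9 was the sparsest of the 6. A fixed 0.25 takes in fewer genes where changes of that size are rare. MSRB9 was chosen with its large change known, so nothing is read from this order.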

How the data were processed

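Leaf RNA of 4 samples, grouped by title, was measured on Affymetrix arrays from biotin-labelled cRNA, per the labels' protocols. The submitters' processing notes name GCOS, with a version and scaling not given in the sources used here. Deposited by the authors was 1 linear signal intensity per probe set and array, taken here without rescaling. After 64 control rows were left out, 16319 probe sets remained. By the platform annotation 9685 probe sets had 1 gene, 356 had several and 6278 are unnamed, and 9647 of the first matched the TAIR10.1 reference by gene ID, which was used for names and gene neighbours only. No probe set of several genes included a gene described here.

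Signals were taken as log2, with the 2 zeros set to 0.1. The lowest 0.25 of probe sets by mean signal (4094) counted as dim and were dropped. The groups were compared over the other 12225 with lmFit and trended eBayes of limma 3.58.1 (R 4.3.3), in 2-sided tests. The threshold was 0.05 after Benjamini-Hochberg adjustment. There were 2 residual and 31.4 prior degrees of freedom. Only 2 arrays per group limit the precision. The fit was tested on simulated data. The labels call the samples biological replicates and say no more of their source.

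The 6 genes and the lists were chosen with earlier results of these data known. Beside the 6 genes, the text names every listed gene past the test, the 2 tested genes of each list with the smallest p, and the 2 genes nearest in pattern to each of the 6; others are marked where they occur. The brightest probe set stood for a listed gene. The alternatives were quantile normalization, centring on the array median, other dim filters, a pseudocount of 1.3 (the 10th percentile), a floor at 6.30, a block for the replicate number, eBayes without the trend and each array left out. Sequences were not used here.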

Additional observations from a re-analysis of the deposited data

How the results depend on the processing

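The change of the repair and signalling genes against the chloroplast scavengers was 4.61, with a replicate SD of 0.85. It was 4.72 under quantile normalization, 4.28 with the pseudocount and 4.02 with the floor. Centring on the array median cannot alter a difference within arrays. Leaving out each array in turn gave 3.86 to 5.36, but with 2 arrays per group this cannot move the change by more than that SD. GRX480, MSRB9, STZ, GR1 and TAPX kept their signs under quantile normalization, centring, the pseudocount and the floor. Leaving out 1 array cannot turn their signs, since their groups do not overlap. SAPX turned from 0.07 to -0.48 under quantile normalization, -0.30 with centred arrays, -0.13 without before replicate 2 and -0.20 without after replicate 1 (range -0.20 to 0.34 with each array left out), and the cause was not tested. The count of probe sets called higher, 675, was 447 without the dim filter, 120 without an intensity trend and 202 to 1053 with each array left out. The count called lower, 33, was 276 under quantile normalization, 182 with centred arrays, 15 without the dim filter, 52 with the lowest 0.5 by mean signal left out, 10 without an intensity trend and 10 to 37 with each array left out. Among the other redox genes the 1 higher call became 0 without the dim filter, without an intensity trend and without before replicate 1 or after replicate 1 (range 0 to 1), and quantile normalization gave 2 lower calls in place of 0. Of the alternatives to the main choices, the filter by mean log2 signal and, for the counts, the floor were added after the data were seen. Deviations of same-numbered arrays from their group means correlated at -0.04, so the numbers are not taken to pair the samples. With the replicate block 540 probe sets were called higher and 29 lower, and STZ was not called. Such a block cannot alter the change of 4.61, since each replicate number occurs in both groups. Signals near 6.30 limit what can be said of MSRB9 and GRX480 before PBZ.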
